A study of Mus musculus with 10 samples.

Results

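The comparison described here sets 2 populations of mouse lung mast cells against each other in the absence of allergen. B7hi mast cells are compared with B7low mast cells, called inducible and constitutive in the published use of these names. The series title uses both terms without tying them to the sort labels. The cells were sorted from lower airway tissue, and the C57BL/6 mice were wild type, aged 5 to 7 weeks, and received 20 µL of saline into the nose 2 times a week for 3 weeks. The members are the 4 libraries labelled B7hi and B7low with PBS, 2 of each population, of the 10 libraries in the series. The other 6, which received the same volume with 3 µg house dust mite (HDM) extract, helped to estimate the spread and gave the same population contrast in other samples. B7 is the integrin β7 chain in that use. Cells were separated by flow cytometry on that surface protein, not by a genetic label, and the labels do not say whether a library came from 1 mouse or from a pool. The p-values therefore refer only to library-to-library spread, part of which may be technical.

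Mast cells are tissue-resident cells of the blood lineage that store histamine, proteases and other mediators in granules bound to heparin-like chains, and release them when IgE receptors, G protein-coupled receptors or other sensors are engaged. Constitutive, or connective tissue, mast cells seed tissues early and sit around vessels and large airways. Inducible, or mucosal, mast cells arise from marrow-derived progenitors that enter the lung by means of α4β7 integrin, and carry fewer of the connective tissue granule proteins. The granule proteases that classically separate these populations are left aside here in favour of amine handling, receptors, transporters, adhesion and cytoskeletal genes.

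Total counts of the 4 libraries were 1222409 and 1725818 in B7hi and 652736 and 639906 in B7low. Values below follow that order, libraries 1 and 2 of each group, as CPM, that is, counts scaled to a common TMM-adjusted library size. The summed level of 17 mast cell markers was 22899 and 18973 CPM in B7hi and 109066 and 65404 CPM in B7low, and no marker was at 0 in any of them. Of these 17 markers, which include granule proteases, 10 were called lower in B7hi (58.8%, against 3.64% of all tested genes) and 0 higher, by the test described below, with a median log2 fold change of −1.85 and 16 of 17 below 0. The 10 calls became 5, 6, 5 and 8 without B7hi saline 1, B7hi saline 2, B7low saline 1 and B7low saline 2. The part of this difference in the lower genes described below was not tested. The stem cell factor receptor Kit was at 3968 and 2693 CPM in B7hi and 5642 and 5057 CPM in B7low, and the transcription factor Gata2 at 897 and 1194 CPM in B7hi and 1327 and 1242 CPM in B7low. Both are among the 7 markers that did not pass (edgeR adjusted p = 0.25 and 0.58). The α chain of the IgE receptor, Fcer1a, was lower in B7hi at 839 and 661 CPM in B7hi and 2972 and 2445 CPM in B7low (−1.85 ± 0.38), a call lost without B7hi saline 1, B7hi saline 2 and B7low saline 1 in turn (adjusted p = 0.051, 0.079 and 0.054). The progenitor marker Cd34 was at 425 and 344 CPM in B7hi and 220.3 and 236 CPM in B7low and did not pass (adjusted p = 0.17). The transcript of the sorting marker itself, Itgb7, was at 681 and 1011 CPM in B7hi and 603 and 570.2 CPM in B7low (adjusted p = 0.44), so the surface difference used for the sort was not matched by a called difference in its RNA. Markers of other cells were present at low to moderate levels, and their part in the differences below was not tested. Of 14 T, NK and innate lymphoid cell markers 13 had a count, and their sum was 589 and 687 CPM in B7hi and 175 and 201 CPM in B7low. Within that list Lck and Cd3e had 165 and 28 counts in B7hi saline 2 but 2 and 0 in B7hi saline 1, where Nkg7 at 521 CPM made up most of the sum. Its 8 tested members had 5 fold changes above 0 and 3 below, and 0 were called. Of 20 myeloid markers 11 had a count, with sums of 45.3 and 70.5 CPM in B7hi and 17.5 and 43.5 CPM in B7low, and Lyz2, C1qa and Fcgr1 were among those at 0 in all 4 libraries. Of 12 granulocyte markers 6 had a count, with sums of 36.3 and 36.5 CPM in B7hi and 75.2 and 184 CPM in B7low, and S100a8, S100a9 and Prg2 were at 0. Basophil markers, some of which mast cells share, summed to 3219 and 4781 CPM in B7hi and 2114 and 2786 CPM in B7low. Members of that list differed in direction: Mcpt8, a basophil protease, was at 837 and 691 CPM in B7hi and 57.7 and 189 CPM in B7low and Ifitm1 at 1242 and 863 CPM in B7hi and 50.7 and 293 CPM in B7low (adjusted p = 0.073 and 0.054), whereas Prss34 and Cd200r3 were called lower. B cell markers summed to 15.9 and 86.7 CPM in B7hi and 36.7 and 56.9 CPM in B7low. Epithelial, endothelial, fibroblast, platelet and red cell markers, 22 of 29 with a count, summed to 692 and 592 CPM in B7hi. In B7low they summed to 476 and 707 CPM. Replicates ranked genes alike in B7hi (Spearman correlation of 0.93 across genes, which are not independent replicates) and less so in B7low (0.78). B7low saline 2 also held 6956 CPM of the nuclear RNA Kcnq1ot1, against 1231 to 2794 CPM in the other 3. In sorted bulk RNA, fewer cells expressing a gene and less RNA per cell cannot be told apart.

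Of 10533 genes tested, 306 were higher in B7hi (2.91%) and 383 were lower (3.64%), together 689 (6.54%), at an adjusted p under 0.05 in edgeR's quasi-likelihood test with Benjamini-Hochberg adjustment, which is what called means below. The lower genes differed by more, with a median log2 fold change of −2.76, against 1.86 for the higher genes. With each of the 4 saline libraries left out in turn, 121 lower genes (1.15% of those tested) and 40 higher genes (0.38%) remained called in all of these fits. Counts of called genes were 226, 312, 444 and 566 without B7hi saline 1, B7hi saline 2, B7low saline 1 and B7low saline 2, and in that order such counts are given below. The split between directions depended on the scaling. Higher genes made up 44.4% of the calls with TMM, 36.9% with DESeq2 size factors and 67.9% with library size alone, which moved the median of all genes from 0.03 to 0.30. Each group of genes below is therefore read relative to all tested genes.

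Slc6a4, the plasma membrane serotonin transporter (chromosome 11, 76998603 to 77032340, plus strand, GRCm38), had the smallest p. It stood at 2.27 and 6.26 CPM in the B7hi libraries and at 608 and 396 CPM in the B7low libraries, a log2 fold change of −6.76 ± 0.47 (SE, n = 2 a side, edgeR adjusted p = 5.2e-07). Cd9, a tetraspanin of the cell surface (chromosome 6, 125460266 to 125494791, minus strand), led the other direction, at 468 and 246 CPM in B7hi and 17.5 and 31.8 CPM in B7low (3.84 ± 0.46, adjusted p = 0.00012). The groups did not overlap for either gene, which the rule for naming such genes required. Over all tested genes the groups did not overlap in 23.4% with B7hi lower and in 28.5% with B7hi higher. To show the DNA next to such genes, the 250 bases before the RefSeq transcription start (GRCm38.p6) were searched on both strands for 7 short words: GATAAG (bound by GATA factors), CACGTG and CATGTG (E-boxes of the kind bound by MITF), TGANTCA (AP-1), TGTGGT (RUNX), ATCAAAG (TCF/LEF) and CCGGAAG (ETS). No 2 of these words share all their letters, and both E-box words are forms of CANNTG. Shown are the promoters of Slc6a4 and Cd9 as the leading genes of each direction, and those of the 4 genes with GATAAG that had the smallest p among genes lower in B7hi in every one of these fits. Capitals mark a match, written as it reads on the gene's strand, so that CTTATC is GATAAG on the other strand.
Slc6a4, chr11:76998347-76998596, plus strand: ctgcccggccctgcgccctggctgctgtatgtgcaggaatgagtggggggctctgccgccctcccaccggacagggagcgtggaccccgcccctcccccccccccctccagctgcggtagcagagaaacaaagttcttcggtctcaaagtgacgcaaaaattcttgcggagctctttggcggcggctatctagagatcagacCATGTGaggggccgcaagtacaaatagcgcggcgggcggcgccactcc
Cd9, chr6:125494761-125495010, minus strand: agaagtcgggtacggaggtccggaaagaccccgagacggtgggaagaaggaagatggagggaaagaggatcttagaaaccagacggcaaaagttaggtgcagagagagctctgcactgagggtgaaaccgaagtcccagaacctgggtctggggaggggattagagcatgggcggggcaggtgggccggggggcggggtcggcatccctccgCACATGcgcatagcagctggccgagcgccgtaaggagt
St3gal5, chr6:72097358-72097607, plus strand: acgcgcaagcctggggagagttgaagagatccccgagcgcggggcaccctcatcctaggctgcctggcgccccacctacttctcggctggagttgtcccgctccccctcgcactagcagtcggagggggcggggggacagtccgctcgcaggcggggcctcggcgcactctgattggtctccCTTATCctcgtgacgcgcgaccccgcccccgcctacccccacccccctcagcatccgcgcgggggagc
Rgs13, chr1:144177373-144177622, minus strand: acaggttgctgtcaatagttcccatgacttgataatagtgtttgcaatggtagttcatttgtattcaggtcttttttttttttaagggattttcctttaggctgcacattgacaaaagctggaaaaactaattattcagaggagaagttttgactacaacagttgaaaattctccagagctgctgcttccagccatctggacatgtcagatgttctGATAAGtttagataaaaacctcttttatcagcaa
Slc6a12, chr6:121342324-121342573, plus strand: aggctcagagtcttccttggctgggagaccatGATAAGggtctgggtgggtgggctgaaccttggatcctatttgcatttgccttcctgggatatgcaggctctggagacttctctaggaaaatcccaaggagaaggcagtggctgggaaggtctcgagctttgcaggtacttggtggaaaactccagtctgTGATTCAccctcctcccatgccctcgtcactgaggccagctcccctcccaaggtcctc
Jun, chr4:95052223-95052472, minus strand: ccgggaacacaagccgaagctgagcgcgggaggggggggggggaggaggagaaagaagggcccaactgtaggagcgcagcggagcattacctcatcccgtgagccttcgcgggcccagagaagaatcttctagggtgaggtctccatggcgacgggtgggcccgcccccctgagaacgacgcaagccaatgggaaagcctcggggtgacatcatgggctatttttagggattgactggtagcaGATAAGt
The Slc6a4 and Cd9 windows each held CATGTG, 48 and 38 bases before the start, the latter read as CACATG on the gene's strand. GATAAG lay 68 bases before the start of St3gal5, 34 before that of Rgs13, 218 before that of Slc6a12 and 7 before that of Jun, and Slc6a12 also held TGANTCA 58 bases before its start. Slc6a12 has 5 starts in the table, of which the first is shown. Of the 121 genes lower in every fit, 88 had a promoter in the table and 11 of these held GATAAG (12.5%), against 2 of 23 genes higher in every fit (8.70%), 349 of 8052 tested genes (4.33%) and 1783 of 27025 promoters in all (6.60%). The shares of CATGTG were 9.09%, 8.70%, 7.20% and 12.2% in the same order. GATAAG was not the word whose share differed most: CCGGAAG was held by 3.41% of the genes lower in every fit, 8.70% of those higher, 14.9% of tested genes and 7.05% of all promoters. TGANTCA was held by 9.09%, 4.35%, 4.27% and 6.87%, TGTGGT by 14.8%, 21.7%, 10.98% and 14.2%, CACGTG by 5.68%, 0%, 8.62% and 6.05%, and ATCAAAG by 1.14%, 0%, 2.27% and 3.23%. A match is a description of letters, and binding was not measured.

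Serotonin and histamine genes were lower in B7hi. Of 14 tested genes for the synthesis, storage and breakdown of these amines, 6 were lower and 0 higher, with a median log2 fold change of −1.49 against 0.03 over all tested genes. The 6 calls became 3, 4, 4 and 5 with a saline library left out. Besides the transporter Slc6a4, the lower genes include both enzymes that lead from tryptophan to serotonin. Tph1, the rate-limiting enzyme of serotonin synthesis outside the brain, was at 39.3 and 152 CPM in B7hi and 1021 and 903 CPM in B7low (−3.31 ± 0.53, edgeR adjusted p = 0.0024). Ddc, the decarboxylase that makes serotonin from its precursor, stood at 2.27 and 11.5 CPM in B7hi and 69.9 and 68.6 CPM in B7low (−3.22 ± 0.62). It no longer passed without B7hi saline 1 (adjusted p = 0.057). The B7hi libraries differed by several-fold from each other for both enzymes. Each remained below both B7low libraries, as held for 23.4% of all tested genes. Maob, a mitochondrial oxidase that degrades amines, was at 10.6 and 7.83 CPM in B7hi and 278 and 140.5 CPM in B7low (−4.51 ± 0.58, adjusted p = 0.0004). Hdc, which makes histamine, differed less, with 2109 and 1100.0 CPM in B7hi and 5515 and 3396 CPM in B7low (−1.47 ± 0.42, adjusted p = 0.047). That call was lost without B7hi saline 1, B7hi saline 2, B7low saline 1, B7low saline 2, B7hi HDM 2, B7low HDM 2 and B7low HDM 3 in turn (adjusted p = 0.056, 0.3, 0.22, 0.05, 0.059, 0.057 and 0.052). The vesicular amine transporter Slc18a2 belongs to the same list and was not called.

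**Figure D1:**
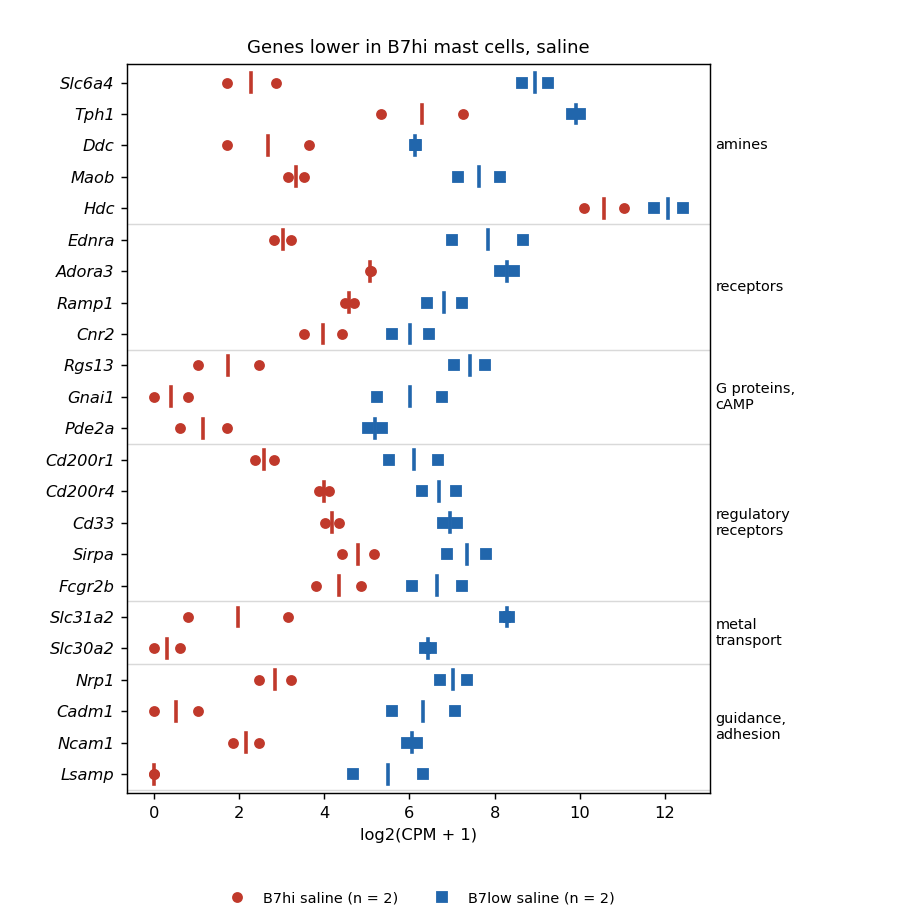
Level of 23 genes lower in B7hi, as log2(CPM + 1), in each of the 2 B7hi (circles) and 2 B7low (squares) saline libraries, with a bar at each group's mean. No B7hi value reaches a B7low value of the same gene, which also held for 23.4% of all tested genes. Slc6a4 lies at 2.27 and 6.26 CPM in B7hi against 608 and 396 CPM in B7low.

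Receptors for purines, amines and peptides followed the same direction, with 8 of 31 tested members lower and 2 higher (median −0.58). Of the lower calls 6, 8, 7 and 7 were left without single saline libraries. Adora3, the adenosine receptor known to enhance mast cell degranulation in mice, was at 32.5 and 33.4 CPM in B7hi and 349.7 and 279 CPM in B7low (−3.25 ± 0.33, edgeR adjusted p = 3e-05), and its 2 values in each group lay close together. Ednra, the type A endothelin receptor, stood at 6.05 and 8.35 CPM in B7hi and 406 and 127 CPM in B7low (−5.16 ± 0.53). The B7low libraries differed by more than 3-fold for Ednra, and both were far above B7hi. Ramp1, the partner that turns the calcitonin-like receptor into the receptor for the neuropeptide CGRP, was at 24.9 and 21.4 CPM in B7hi and 150.4 and 83.6 CPM in B7low (−2.33 ± 0.37). Mrgpra4, of the Mas-related family of peptide receptors, had 0.756 and 0.522 CPM in B7hi against 59.4 and 55.2 CPM in B7low, which is 92.7-fold lower (95% counting interval 24.7 to 781), and its relative Mrgprx2 was at 0 and 4.18 CPM in B7hi and 797 and 401 CPM in B7low (−7.91 ± 0.83). Reads of 25 bases may be shared among members of that family. P2ry10, a receptor for lysophosphatidylserine, went the other way, at 120.2 and 133 CPM in B7hi and 36.7 and 16.7 CPM in B7low (2.25 ± 0.47), with its call lost without B7low saline 2 (adjusted p = 0.078).

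Some genes of the machinery that reads out these receptors differed too. Rgs13, a mast cell inhibitor of G protein signalling, was at 4.53 and 1.04 CPM in B7hi and 219 and 132 CPM in B7low (−6.05 ± 0.64, edgeR adjusted p = 4.5e-05). Gnai1, an inhibitory G protein α chain, had 1 count in the B7hi libraries and 108 and 36.8 CPM in B7low, 233-fold lower in B7hi (40.6 to 9292). The γ chain Gng12 was higher, at 314 and 240.2 CPM in B7hi and 85.7 and 80.3 CPM in B7low (1.74 ± 0.31). It was the only higher member of 41 tested G protein and RGS genes (2.44%), of which 4 were lower (9.76%, median −0.08). Over all tested genes 2.91% were higher and 3.64% lower, so the higher share is near that of all genes. Phosphodiesterases, which degrade cyclic nucleotides, went in both directions. Pde2a stood at 2.27 and 0.522 CPM in B7hi and 31.5 and 40.1 CPM in B7low (−4.69 ± 0.82), whereas Pde4b, the cAMP-specific form, stood at 67.3 and 82 CPM in B7hi and 6.99 and 15 CPM in B7low (2.74 ± 0.54). The Pde4b call was lost without B7low saline 1 (adjusted p = 0.051). Of the 38 tested genes of cyclic nucleotide signalling 2 were lower, Pde2a and the kinase anchor Akap2, and 2 were higher, Pde4b and Pde3a. Each share was 5.26%, against 3.64% lower and 2.91% higher over all tested genes. Pde3a lost its call without each of the 4 saline libraries in turn.

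Several regulatory receptors, which raise or restrain mast cell activation, were lower in B7hi. Among 56 tested regulatory receptors, 10 were lower and 3 higher (median −0.37, or −0.68 with genes without counts in 1 group set at their bound). The lower calls became 6, 6, 6 and 8 with a saline library left out, and the higher calls 0, 0, 0 and 4. Cd200r1, which restrains mast cells when it binds CD200, was at 6.05 and 4.18 CPM in B7hi and 101 and 45.1 CPM in B7low (−3.84 ± 0.55, edgeR adjusted p = 0.00052). Its relatives Cd200r3, at 31.7 and 57.4 CPM in B7hi and 497 and 468 CPM in B7low (−3.42 ± 0.41), and Cd200r4, at 13.6 and 16.2 CPM in B7hi and 136 and 76.9 CPM in B7low (−2.82 ± 0.40), pair with activating adaptors. The sialic acid receptor Cd33 was at 15.1 and 19.3 CPM in B7hi and 138 and 109 CPM in B7low (−2.82 ± 0.42), and Sirpa, the receptor for CD47, at 20.4 and 35 CPM in B7hi and 222 and 117 CPM in B7low (−2.59 ± 0.39). Fcgr2b, the inhibitory IgG receptor, stood at 28 and 13.1 CPM in B7hi and 149 and 65.2 CPM in B7low (−2.40 ± 0.46), with its call lost without B7hi saline 2 and B7low saline 1 in turn (adjusted p = 0.075 and 0.07). For all 6 receptors the lowest B7low library exceeded the highest B7hi library, as held for 23.4% of all tested genes. The checkpoint receptor Lag3 was higher in B7hi, at 162 and 126 CPM in B7hi and 6.99 and 36.8 CPM in B7low (2.70 ± 0.68), a call lost without B7hi saline 1, B7hi saline 2, B7low saline 1, B7hi HDM 3 and B7low HDM 2 in turn (adjusted p = 0.15, 0.091, 0.14, 0.052 and 0.056). The costimulator Icos was at 44.6 and 36.5 CPM in B7hi and 1.75 and 5.02 CPM in B7low (3.53 ± 0.97), and its call was lost without B7hi saline 1, B7hi saline 2, B7low saline 1, B7low saline 2, B7hi HDM 2 and B7hi HDM 3 in turn (adjusted p = 0.17, 0.11, 0.15, 0.088, 0.05 and 0.058). Both are also genes of T and other lymphoid cells. In B7hi saline 1 Lck and Cd3e had 2 and 0 counts, but Nkg7 was at 521 CPM there, against 448 CPM in B7hi saline 2 and 36.7 and 124 CPM in B7low, and the part of lymphoid cells in these differences was not tested.

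Some transporters for metals and small solutes differed as well. Slc31a2, which handles copper in endosomes and granules, stood at 0.756 and 7.83 CPM in B7hi and 320.0 and 304 CPM in B7low (−6.01 ± 0.56, edgeR adjusted p = 1.8e-05). Slc30a2, a zinc transporter of vesicles, had 1 count in B7hi against 89.2 and 81.9 CPM in B7low, 277-fold lower (48.6 to 11042). Fech, the last enzyme of haem synthesis, was at 21.2 and 33.9 CPM in B7hi and 103 and 112 CPM in B7low (−1.95 ± 0.38), with its call lost without B7hi saline 1 (adjusted p = 0.1). Slc39a6, a zinc importer, was higher in B7hi at 66.5 and 86.7 CPM in B7hi and 35 and 20.1 CPM in B7low (1.48 ± 0.41), a call lost without B7hi saline 1, B7hi saline 2, B7low saline 2, B7hi HDM 1, B7hi HDM 2, B7hi HDM 3 and B7low HDM 2 in turn (adjusted p = 0.11, 0.24, 0.2, 0.052, 0.052, 0.059 and 0.053). Over the metal genes, 4 of 41 tested were lower (9.76%) and 2 higher (4.88%), with a median of −0.40. Over all tested genes 3.64% were lower and 2.91% higher. Of the lower metal gene calls 2, 3, 3 and 4 were left. Among the other solute carriers, a group added after values were seen, the betaine and GABA transporter Slc6a12 was at 0.756 and 1.57 CPM in B7hi and 105 and 68.6 CPM in B7low (−6.03 ± 0.72). The nucleoside transporter Slc29a1 was at 56.7 and 35.5 CPM in B7hi and 769 and 249 CPM in B7low and the lactate transporter Slc16a1 at 15.9 and 23.5 CPM in B7hi and 135 and 127 CPM in B7low (log2 fold changes −3.47 ± 0.49 and −2.71 ± 0.40). Slc29a1 was chosen after its values were seen. The 2 main glucose transporters moved apart. Slc2a1 was lower, at 9.07 and 15.7 CPM in B7hi and 59.4 and 117 CPM in B7low (−2.80 ± 0.59), and its call was lost without B7hi saline 1 and B7low saline 2 in turn (adjusted p = 0.11 and 0.076). Slc2a3 was higher, at 441 and 219 CPM in B7hi and 101 and 33.4 CPM in B7low (2.29 ± 0.55), and lost its call without B7hi saline 1 and B7low saline 2 in turn (adjusted p = 0.18 and 0.13). Of 166 tested solute carriers 15 were lower (9.04%) and 7 higher (4.22%), with a median of −0.10. These shares compare with the same 3.64% and 2.91% of all tested genes. Without single saline libraries 9, 12, 10 and 14 were lower and 0, 1, 4 and 1 higher. The 7 higher calls also became 4, 4 and 2 without B7hi HDM 1, 2 and 3 and 4 without B7low HDM 2.

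Guidance and synaptic adhesion genes had the lowest median of the groups in the bar chart of calls, −2.27 over 60 tested members. The count table held 201 members, and the others did not pass the count filter. A gene near 0 in B7hi could pass it through B7low libraries alone, and the part of the filter in this median was not tested. Of the 60 tested, 12 were lower (20.0%) and 5 higher (8.33%). The lower calls became 8, 7, 10 and 11 and the higher calls 1, 3, 2 and 4 with a saline library left out. Nrp1, a coreceptor for semaphorins and vascular growth factor, stood at 4.53 and 8.35 CPM in B7hi and 163 and 104 CPM in B7low (−4.30 ± 0.50, edgeR adjusted p = 9.9e-05). Cadm1, which attaches mast cells to nerves, fibroblasts and muscle, had 2 counts in B7hi, against 133 and 46.8 CPM in B7low, and was 144-fold lower (38.9 to 1204). The neural adhesion molecule Ncam1 was at 4.53 and 2.61 CPM in B7hi and 71.7 and 60.2 CPM in B7low (−4.21 ± 0.66). Several members had no counts at all in B7hi. Gpm6a, a neuronal membrane glycoprotein, and Lsamp, of the IgLON family, were at 0 there and stood at 107 and 58.5 CPM and 24.5 and 78.6 CPM in B7low (at least 88.6-fold and at least 56.3-fold lower, against 3 counts over the group). Cntn4, a contactin, had 1 count in B7hi and 82.2 and 20.1 CPM in B7low. Cdh1, the epithelial cadherin that also ties mucosal mast cells and other leukocytes to epithelium, was the member highest in B7hi, at 177 and 124 CPM in B7hi and 10.5 and 18.4 CPM in B7low (3.36 ± 0.47, adjusted p = 0.00042). The epithelial marker Epcam had 1 count in B7hi saline 2 and none in the other 3 libraries. Krt18, another epithelial marker, had 14 and 18 counts in B7hi and none in B7low. The part of epithelial cells in the Cdh1 difference was not tested.

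Some Wnt and TGF-β genes were lower in B7hi, although 14 of 35 and 15 of 34 tested members had fold changes above 0. Nkd1, a target and feedback inhibitor of Wnt signalling, had no counts in B7hi and 154 and 105 CPM in B7low, at least 139-fold lower in B7hi (edgeR adjusted p = 1.6e-05). Of 35 tested Wnt genes, 5 were lower and 0 higher (median −0.43), and the others were the receptors Fzd7, Ror1, Fzd6 and Fzd8. Nkd1 alone kept its call in all 4 fits, the counts being 1, 1, 3 and 2, and 3 without B7low HDM 1 or 2. Fzd7 stood at 1.51 and 1.57 CPM in B7hi and 19.2 and 35.1 CPM in B7low (−4.05 ± 0.90), with its call lost without B7hi saline 1, B7hi saline 2 and B7low saline 2 in turn (adjusted p = 0.11, 0.1 and 0.063). In the TGF-β and BMP group, 4 of 34 were lower and 0 higher (median −0.27, and 0.02 with library size alone). Bambi, a pseudoreceptor that damps TGF-β, was at 2.27 and 9.4 CPM in B7hi and 89.2 and 149 CPM in B7low (−4.25 ± 0.63, adjusted p = 0.00077). The receptors Tgfbr1 (−1.41 ± 0.33) and Bmpr2 (−1.80 ± 0.43) lost their calls, Tgfbr1 without B7hi saline 1, B7hi saline 2 and B7low saline 1 in turn (adjusted p = 0.2, 0.056 and 0.1) and Bmpr2 without B7hi saline 1, B7hi saline 2 and B7low saline 1 in turn (adjusted p = 0.13, 0.12 and 0.11).

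**Figure D2:**
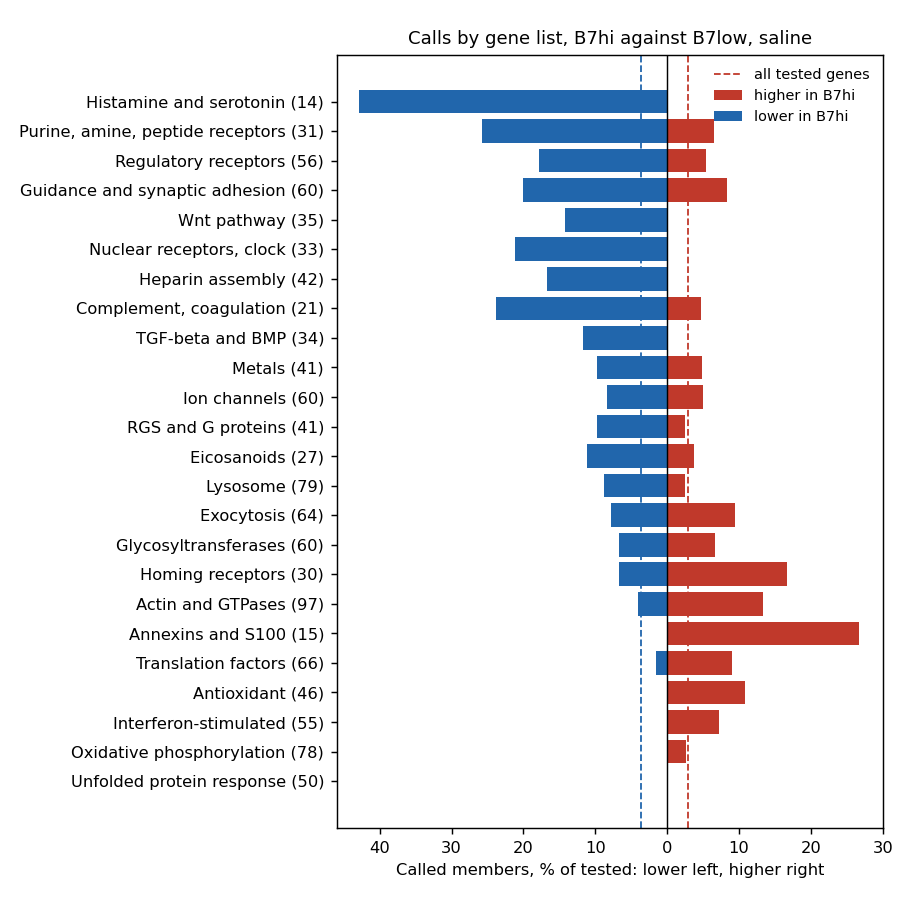
Share of tested members called lower (bars to the left) and higher (bars to the right) in B7hi with saline for 24 gene groups, in percent, with the number tested in brackets. Dashed lines mark the shares over all tested genes, 3.64% lower and 2.91% higher. Among the groups shown, amine genes have the longest bar to the left (6 of 14). Annexins and S100 genes have the longest to the right (4 of 15). Some groups counted in the text are not shown and had larger shares. These include cytosolic ribosomal protein genes (36 of 82 higher, 43.9%) and mast cell markers (10 of 17 lower, 58.8%).

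Enzymes that build heparin and related chains, which pack the granules of connective tissue mast cells, were lower in B7hi in 7 of 42 tested cases and higher in 0 (median −0.23, and 0.03 with library size alone). The counts were 4, 5, 6 and 8 without single saline libraries. Ndst2, the sulfotransferase needed for mast cell heparin, was at 133 and 157 CPM in B7hi and 533 and 448 CPM in B7low (−1.76 ± 0.29, edgeR adjusted p = 0.0014). Ext1, which elongates the chain, stood at 15.9 and 14.1 CPM in B7hi and 89.2 and 61.9 CPM in B7low (−2.33 ± 0.42). Larger differences were seen in the 3-O-sulfotransferases that finish specific chain motifs. Hs3st3b1 was at 12.1 and 3.13 CPM in B7hi and 121 and 73.6 CPM in B7low (−3.73 ± 0.63), and Hs3st3a1 had no counts in B7hi and 22.7 and 26.8 CPM in B7low (at least 26.8-fold lower). The chain polymerase and the N-sulfotransferase thus differed by less than the finishing enzymes, a difference between genes that was not tested.

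Sialic acid and glycolipid enzymes were called in both directions, with 4 of 60 tested glycosyltransferases lower and 4 higher. Each share was 6.67%, against 3.64% lower and 2.91% higher over all tested genes. St3gal5, which makes the ganglioside GM3, had 3 counts in B7hi and 236 and 156 CPM in B7low, and was 210.4-fold lower (71.1 to 1028, edgeR adjusted p = 4.1e-05). Galnt18, of the family that starts O-linked chains, had 1 count in B7hi against 83.9 and 35.1 CPM (191-fold lower, 33.2 to 7652). St6galnac3, another sialyltransferase, was at 15.1 and 5.74 CPM in B7hi and 96.2 and 63.5 CPM in B7low (−2.97 ± 0.52). In the other direction stood B3gnt5, which starts lacto-series glycolipids, at 81.6 and 42.3 CPM in B7hi and 12.2 and 8.36 CPM in B7low (2.57 ± 0.53), with its call lost without B7hi saline 1 and B7low saline 2 in turn (adjusted p = 0.11 and 0.05). St8sia6, an α2,8-sialyltransferase, was at 24.9 and 32.9 CPM in B7hi and had no counts in B7low (at least 11.6-fold higher), a call lost without B7hi saline 2, B7low saline 1 and B7low saline 2 in turn (adjusted p = 0.063, 0.066 and 0.066). B4galnt1, the enzyme that converts GM3 to GM2, was higher as well (1.85 ± 0.47), and lost its call without B7hi saline 1, B7hi saline 2 and B7low saline 1 in turn (adjusted p = 0.086, 0.11 and 0.13).

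Secreted and surface proteins of complement and coagulation were lower in 5 of 21 tested cases and higher in 1 (median −0.80), with 4, 5, 4 and 6 lower calls in the 4 fits. The complement protease precursor C2 had no counts in B7hi and 163 and 80.3 CPM in B7low (at least 130.1-fold lower, edgeR adjusted p = 1.2e-05). The anticoagulant protein S gene Pros1 was at 7.56 and 6.26 CPM in B7hi and 198 and 122 CPM in B7low (−4.52 ± 0.59), and Cd55, which shields cells from complement, at 43.1 and 24.5 CPM in B7hi and 430.1 and 162 CPM in B7low (−3.14 ± 0.48). F2r, the thrombin receptor, was the higher member, at 101 and 127 CPM in B7hi and 33.2 and 43.5 CPM in B7low (1.57 ± 0.40), and lost its call without B7hi saline 1, B7hi saline 2, B7low saline 1 and B7low saline 2 in turn (adjusted p = 0.069, 0.15, 0.12 and 0.066). Ecm1, a secreted matrix protein, was at 13.6 and 12 CPM in B7hi and 215 and 107 CPM in B7low (−3.65 ± 0.41, adjusted p = 6.2e-05). Apoe, the lipoprotein of cholesterol transport, stood at 265 and 236 CPM in B7hi and 3695 and 1635 CPM in B7low (−3.41 ± 0.42, adjusted p = 0.00024). Scarb1, a receptor that takes up cholesterol from lipoproteins, went the other way, with 26.5 and 33.4 CPM in B7hi and no counts in B7low (at least 11.9-fold higher, adjusted p = 0.0027). Myeloid cells also express Apoe. The myeloid markers Lyz2, C1qa, C1qb and C1qc had no counts in these 4 libraries, but 11 of 20 had a count. Their sums were 45.3 and 70.5 CPM in B7hi and 17.5 and 43.5 CPM in B7low. The part of myeloid cells in the Apoe difference was not tested.

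Ion channel genes were called in both directions, 5 lower and 3 higher of 60 tested. These shares were 8.33% and 5.00%, against 3.64% and 2.91% of all tested genes. Kcne3, a regulatory β chain, was at 32.5 and 26.1 CPM in B7hi and 593 and 331 CPM in B7low (−3.98 ± 0.43, edgeR adjusted p = 5.9e-05), and Kcnq1, the potassium channel it can regulate, at 6.05 and 0 CPM in B7hi and 171 and 85.3 CPM in B7low (−5.56 ± 0.83). Kcnq1ot1 is transcribed antisense within Kcnq1 (143203458 to 143296549 on the minus strand, inside 143106362 to 143427042 on chromosome 7), and the use of strand in counting is not given in the sources used here, so reads of the pair cannot be told apart. Kcnq1ot1 itself stood at 1537 and 1231 CPM in B7hi and 2794 and 6956 CPM in B7low (adjusted p = 0.46). The part of shared reads in the Kcnq1 difference was not tested. Ryr3, a calcium release channel of internal stores, was at 3.78 and 1.57 CPM in B7hi and 56 and 63.5 CPM in B7low (−4.49 ± 0.77), and Ano2, a calcium-gated chloride channel, had no counts in B7hi against 43.7 and 13.4 CPM (at least 30.4-fold lower). Clic4, an intracellular chloride channel protein, had no counts in B7low and 31 and 29.8 CPM in B7hi (at least 11.8-fold higher, adjusted p = 0.00062). Kcnn4, the calcium-activated potassium channel of mast cells, was at 186 and 164 CPM in B7hi and 12.2 and 33.4 CPM in B7low (2.92 ± 0.63), and its call was lost without B7hi saline 1, B7hi saline 2 and B7low saline 1 in turn (adjusted p = 0.076, 0.051 and 0.12). Trpv2, a cation channel, stood at 178 and 89.3 CPM in B7hi and 26.2 and 13.4 CPM in B7low (2.75 ± 0.51), lost without B7hi saline 1 (adjusted p = 0.051).

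Of 27 tested eicosanoid genes, 3 were lower and 1 was higher, and the latter share is near that of all genes. The lower genes were Ptgs1, Hpgds and Pla2g7, and none kept its call with each of the 4 saline libraries left out. Ptgs1, the constitutive cyclooxygenase, was at 4.53 and 7.31 CPM in B7hi and 52.5 and 61.9 CPM in B7low (−3.22 ± 0.67, edgeR adjusted p = 0.011). Hpgds, which makes prostaglandin D2, the main mast cell prostanoid, was at 74.1 and 73.6 CPM in B7hi and 399 and 211 CPM in B7low (−2.04 ± 0.44). Neither synthesis gene held in all fits, Ptgs1 losing its call without B7hi saline 1, B7hi saline 2, B7low saline 1 and B7low saline 2 in turn (adjusted p = 0.11, 0.061, 0.051 and 0.066) and Hpgds without B7hi saline 1, B7hi saline 2 and B7low saline 1 in turn (adjusted p = 0.11, 0.094 and 0.1). Ltb4r1, the high-affinity receptor for leukotriene B4, was higher in B7hi, at 124 and 116 CPM in B7hi and 3.5 and 3.34 CPM in B7low (5.09 ± 0.77, adjusted p = 0.00091), and kept its call in each fit.

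Genes of lysosomal hydrolases and membrane proteins were lower in 7 of 79 tested cases (8.86%) and higher in 2 (2.53%). Over all tested genes 3.64% were lower and 2.91% higher, so the higher share is near that of all genes. The lower calls became 3, 3, 3 and 6 with a saline library left out. Ids, which removes sulfate from heparan chains, was at 35.5 and 30.3 CPM in B7hi and 173 and 186 CPM in B7low (−2.45 ± 0.42, edgeR adjusted p = 0.002). Of 64 tested genes of granule traffic 5 were lower (7.81%) and 6 higher (9.38%). With each of the 4 saline libraries left out, 1 lower and 0 higher calls were kept throughout. Among these calls, some relatives with like roles differed in direction. Sytl3, an effector of RAB27, was lower at 25.7 and 28.2 CPM in B7hi and 313 and 273 CPM in B7low (−3.43 ± 0.46), whereas Sytl1, another, was higher at 68 and 67.3 CPM in B7hi and 6.99 and 15 CPM in B7low (2.60 ± 0.71). Rab27b was lower at 402 and 303 CPM in B7hi and 1095 and 689 CPM in B7low (−1.34 ± 0.37), and Rab27a was higher at 65.7 and 37.1 CPM in B7hi and 8.74 and 16.7 CPM in B7low (1.99 ± 0.52). Mlph, the adaptor that links RAB27 to myosin, stood at 3.78 and 8.88 CPM in B7hi and 241 and 109 CPM in B7low (−4.71 ± 0.78). Sytl3 alone of these kept its call with each of the 10 libraries left out. The calls were lost for Sytl1 without B7hi saline 1, B7hi saline 2, B7low saline 1, B7low saline 2 and B7hi HDM 3 in turn (adjusted p = 0.13, 0.12, 0.18, 0.1 and 0.057), for Rab27b without B7hi saline 1, B7hi saline 2 and B7low saline 1 in turn (adjusted p = 0.13, 0.24 and 0.21), for Rab27a without B7hi saline 1 and B7low saline 1 in turn (adjusted p = 0.26 and 0.13) and for Mlph without B7hi saline 1 (adjusted p = 0.063). The 6 higher calls became 3 without B7hi HDM 3.

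Nuclear receptors and clock genes were lower in 7 of 33 tested cases and higher in 0 (median −0.51), with 2, 4, 3 and 6 calls in the 4 fits. Clock, the core activator of the circadian loop, was at 8.31 and 9.92 CPM in B7hi and 105 and 98.7 CPM in B7low (−3.46 ± 0.54, edgeR adjusted p = 0.00091). Tsc22d3, the glucocorticoid-induced leucine zipper gene, was at 247 and 315 CPM in B7hi and 997 and 590.3 CPM in B7low (−1.49 ± 0.30), and its call was lost without B7hi saline 1 and B7low saline 1 in turn (adjusted p = 0.11 and 0.076). Rxra, the shared partner of many nuclear receptors, was at 1.51 and 6.26 CPM in B7hi and 64.7 and 43.5 CPM in B7low (−3.69 ± 0.74), with its call lost without B7hi saline 1 (adjusted p = 0.086). Time of day at collection was not given in the sources used here.

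Regulators of transcription included homeobox relatives that differed in opposite directions. Meis2 had 1 count in B7hi and 182 and 93.6 CPM in B7low (443-fold lower, 78.4 to 17602), whereas its relative Meis1 was higher, at 255 and 271 CPM in B7hi and 62.9 and 107 CPM in B7low (1.63 ± 0.36, edgeR adjusted p = 0.012). The Meis1 call was lost without B7hi saline 1, B7hi saline 2 and B7low saline 1 in turn (adjusted p = 0.05, 0.062 and 0.09). Eya2, a coactivator of homeobox factors, had 77.1 and 72.6 CPM in B7hi and 1 count in B7low (87.1-fold higher, 15.5 to 3453). Of 62 tested lineage factors 3 were higher and 1 lower, 4.84% and 1.61%, against 2.91% and 3.64% of all tested genes. Ets1, known from lymphoid cells, was at 141 and 177 CPM in B7hi and 33.2 and 48.5 CPM in B7low (1.95 ± 0.36, adjusted p = 0.0037). Some lymphoid markers given above were also higher in B7hi, Nkg7 in both libraries and Lck in B7hi saline 2. Others were not, such as Il7r at 56.7 and 31.3 CPM in B7hi and 96.2 and 33.4 CPM in B7low. The part of lymphoid cells in the Ets1 difference was not tested. Lmo4, a LIM-only cofactor, was at 548 and 388 CPM in B7hi and 87.4 and 83.6 CPM in B7low (2.45 ± 0.59), with its call lost without B7hi saline 1, B7hi saline 2, B7low saline 1, B7low saline 2 and B7low HDM 2 in turn (adjusted p = 0.15, 0.071, 0.15, 0.18 and 0.053). The early response gene Jun was lower, at 663 and 1327 CPM in B7hi and 8214 and 5241 CPM in B7low (−2.76 ± 0.38), while Klf10, a TGF-β-inducible repressor, was the 1 higher member of 41 tested early genes, at 553 and 409.8 CPM in B7hi and 82.2 and 76.9 CPM in B7low (2.60 ± 0.39, adjusted p = 0.00069), against 13 lower (median −0.72). The 13 lower calls became 7, 11, 6 and 14 with a saline library left out.

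Some relatives in signalling below the receptors differed in direction. Among diacylglycerol kinases, which limit RAS activation by removing diacylglycerol, Dgkz and Dgki were lower, at 9.82 and 15.1 CPM in B7hi and 92.7 and 92 CPM in B7low (−2.86 ± 0.40) and at 11.3 and 2.09 CPM in B7hi and 152 and 68.6 CPM in B7low (−4.11 ± 0.66), and Dgka was higher, at 59.7 and 82 CPM in B7hi and 6.99 and 18.4 CPM in B7low (2.47 ± 0.47, edgeR adjusted p = 0.0043). These 3 kinases were chosen after their values were seen. Of the RAS activators that diacylglycerol recruits, Rasgrp4, typical of mast cells, was lower at 1.51 and 4.18 CPM in B7hi and 29.7 and 31.8 CPM in B7low (−3.33 ± 0.75), and Rasgrp1, typical of lymphocytes, was higher at 29.5 and 65.8 CPM in B7hi and 5.25 and 10.03 CPM in B7low (2.63 ± 0.61). Rasgrp4 no longer passed without B7hi saline 1 (adjusted p = 0.15), and that of Rasgrp1 without B7hi saline 2 and B7low saline 1 in turn (adjusted p = 0.18 and 0.086). Rasgrp1 was higher in B7hi saline 2, the library with counts of Lck and Cd3e, than in B7hi saline 1, and the part of T cells in it was not tested. Cytokine receptors were called in both directions, 5 lower (10.2%) and 3 higher (6.12%) of 49 tested. Over all tested genes 3.64% were lower and 2.91% higher. The lower calls became 2, 3, 2 and 6 with a saline library left out. In all 4 of these fits 2 lower and 0 higher receptors kept their calls. Il10rb, shared by the receptors for IL-10, IL-22 and type III interferons, was at 31 and 36.5 CPM in B7hi and 166 and 174 CPM in B7low (−2.32 ± 0.31, adjusted p = 0.00028). For interferon γ, the ligand-binding chain Ifngr1 was higher, at 438 and 435 CPM in B7hi and 180.1 and 102 CPM in B7low (1.63 ± 0.32), and the signalling chain Ifngr2 was lower, at 16.6 and 17.2 CPM in B7hi and 69.9 and 55.2 CPM in B7low (−1.88 ± 0.47). Ifngr1 lost its call without B7low saline 2 (adjusted p = 0.052), and Ifngr2 lost it without B7hi saline 1, B7hi saline 2 and B7low saline 1 in turn (adjusted p = 0.18, 0.14 and 0.099).

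Homing receptors were higher in B7hi, 5 of 30 tested against 2 lower, with a median of 0.83. The 5 higher calls became 4, 4, 4 and 5. Ccr1, a chemokine receptor, was at 145 and 109 CPM in B7hi and 1.75 and 16.7 CPM in B7low (3.75 ± 0.69, edgeR adjusted p = 0.0046). Selplg, the selectin ligand PSGL-1, was at 376 and 359 CPM in B7hi and 121 and 130.4 CPM in B7low (1.55 ± 0.31), with its call lost without B7hi saline 1 (adjusted p = 0.05). Gpr183, the oxysterol receptor, was at 194 and 318 CPM in B7hi and 92.7 and 85.3 CPM in B7low (1.53 ± 0.37), lost without B7hi saline 2, B7low saline 1 and B7low saline 2 in turn (adjusted p = 0.2, 0.068 and 0.091). Lymphocytes carry these receptors too. Ccr1 and Selplg were at least as high in B7hi saline 1, with 2 counts of Lck, as in B7hi saline 2, with 165. Gpr183 went the other way, at 194 CPM in B7hi saline 1 and 318 CPM in B7hi saline 2. The NK and T cell granule gene Nkg7 stood at 521 and 448 CPM in B7hi against 36.7 and 124 CPM in B7low, and the part of lymphoid cells in the homing genes was not tested.

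Among integrins, Itga4, the α4 chain that pairs with β7 (chromosome 2, 79255426 to 79333123), was at 944 and 983 CPM in B7hi and 75.2 and 167 CPM in B7low (2.99 ± 0.43, edgeR adjusted p = 0.00072). The β7 partner αE, Itgae, was at 71.8 and 172 CPM in B7hi and 0 and 10.03 CPM in B7low and did not pass (adjusted p = 0.12). It falls outside the rule for named genes and is given because it is the other partner of the sorting marker. Itgal, the α chain of LFA-1, was higher, at 56.7 and 62.6 CPM in B7hi and 1.75 and 20.1 CPM in B7low (2.42 ± 0.59), and lost its call without B7hi saline 1, B7hi saline 2 and B7low saline 1 in turn (adjusted p = 0.068, 0.086 and 0.084). Itga9 was lower, at 6.8 and 6.26 CPM in B7hi and 64.7 and 61.9 CPM in B7low (−3.26 ± 0.58), the only lower chain of 19 tested. A pair of tetraspanins that associate with integrins also parted, Cd9 higher and Cd81 lower, at 282 and 271 CPM in B7hi and 1411 and 781 CPM in B7low (−1.99 ± 0.34). Parvg, a leukocyte parvin that couples integrins to actin, was higher at 198 and 188 CPM in B7hi and 68.2 and 41.8 CPM in B7low (1.81 ± 0.33, adjusted p = 0.0035).

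Actin genes formed the largest set of higher calls outside the ribosome among the groups counted here. Of 97 tested genes of actin and its GTPase regulators, 13 were higher and 4 lower, with a median of 0.26, and the higher calls became 5, 8, 6 and 8 with a saline library left out. Scaling by library size alone gave 21. Coro1a, a leukocyte actin regulator, was at 824 and 849 CPM in B7hi and 166 and 266 CPM in B7low (1.95 ± 0.32, edgeR adjusted p = 0.0013). Tpm4, a tropomyosin of stress fibres, was at 385 and 268 CPM in B7hi and 90.9 and 45.1 CPM in B7low (2.26 ± 0.37), and the motor Myo1e at 49.9 and 56.4 CPM in B7hi and 6.99 and 1.67 CPM in B7low (3.60 ± 0.59). The formin Diap3 had 30.2 and 31.3 CPM in B7hi and 2 counts in B7low. Actg1, cytoplasmic γ-actin, was at 5453 and 4754 CPM in B7hi and 2193 and 1458 CPM in B7low (1.48 ± 0.28), with its call lost without B7hi saline 1 (adjusted p = 0.05), and Myh9, the non-muscle myosin heavy chain, at 214 and 178 CPM in B7hi and 33.2 and 66.9 CPM in B7low (1.96 ± 0.38), lost without B7low saline 1 (adjusted p = 0.055). The lower members included regulators of small GTPases. Stard13, a GTPase-activating protein that switches RhoA off (chromosome 5, 151037510 to 151233836), had 1 count in B7hi and 389.9 and 264 CPM in B7low (1055-fold lower, 188 to 41765, adjusted p = 5.2e-07). Rhob, an endosomal GTPase, was at 5.29 and 9.4 CPM in B7hi and 124 and 46.8 CPM in B7low (−3.49 ± 0.55), and the exchange factor Arhgef10l at 3.02 and 8.35 CPM in B7hi and 157 and 56.9 CPM in B7low (−4.14 ± 0.63).

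**Figure D3:**
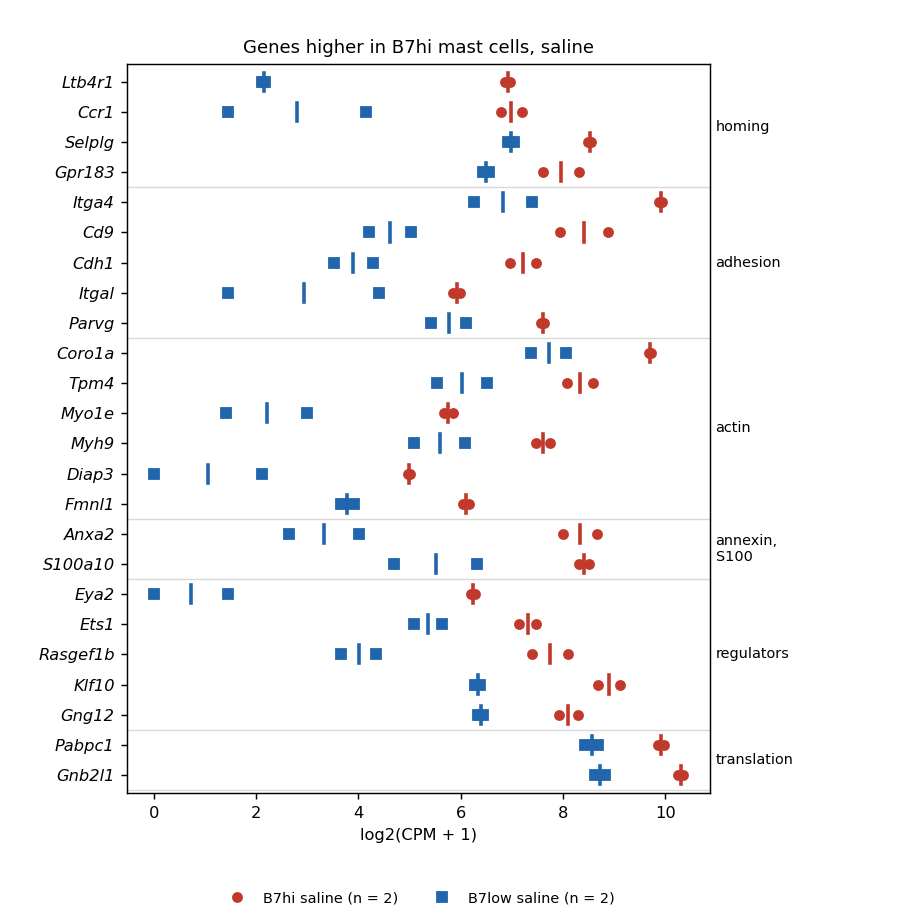
Level of 24 genes higher in B7hi, as log2(CPM + 1), in each of the 2 B7hi (circles) and 2 B7low (squares) saline libraries, with a bar at each group's mean. B7hi values exceed B7low values for every gene shown, which also held for 28.5% of all tested genes. Itga4 lies at 944 and 983 CPM in B7hi against 75.2 and 167 CPM in B7low.

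Annexins and S100 proteins, calcium-binding partners at membranes, were higher in 4 of 15 tested cases and lower in 0, with 2, 3, 2 and 2 calls left. S100a10 was at 363 and 316 CPM in B7hi and 78.7 and 25.1 CPM in B7low (2.71 ± 0.46, edgeR adjusted p = 0.0022). Its binding partner Anxa2 was at 254 and 407 CPM in B7hi and 5.25 and 15 CPM in B7low (5.00 ± 0.78), with its call lost without B7low saline 1 (adjusted p = 0.051). Both chains of that complex were above the highest B7low value in both B7hi libraries, as were 28.5% of all tested genes.

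Other genes that led the higher side had diverse roles. Rasgef1b, an exchange factor for RAP GTPases, was at 274 and 167 CPM in B7hi and 19.2 and 11.7 CPM in B7low (3.83 ± 0.49, edgeR adjusted p = 0.00025). Serpini1, the serine protease inhibitor neuroserpin, was at 153 and 159 CPM in B7hi and 14 and 23.4 CPM in B7low (3.05 ± 0.41), and the aspartic protease Napsa at 196 and 132 CPM in B7hi and 24.5 and 33.4 CPM in B7low (2.49 ± 0.39). Gpr56, an adhesion receptor that senses matrix, was at 116 and 83.5 CPM in B7hi and 8.74 and 18.4 CPM in B7low (2.86 ± 0.48). Ncf1, a subunit of the NADPH oxidase of phagocytes, was at 147 and 141 CPM in B7hi and 24.5 and 41.8 CPM in B7low (2.11 ± 0.40), and was chosen after its values were seen. The proteins that feed the pentose phosphate pathway and thiol defence, Taldo1 and Txn1, were at 399 and 324 CPM in B7hi and 129 and 174 CPM in B7low (1.25 ± 0.27) and at 104 and 101 CPM in B7hi and 33.2 and 33.4 CPM in B7low (1.61 ± 0.38). Of 46 tested antioxidant genes, 5 were higher and 0 lower, and 0, 1, 1 and 2 were left with a saline library left out, and 3 without any 1 of B7hi HDM 1, 2 and 3 and B7low HDM 3. Taldo1 lost its call without B7hi saline 1 and B7low saline 1 in turn (adjusted p = 0.12 and 0.076), and Txn1 without B7hi saline 1, B7hi saline 2, B7low saline 1 and B7low saline 2 in turn (adjusted p = 0.11, 0.085, 0.07 and 0.07).

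Calls among ribosomal and translation genes were nearly all higher, and many rested on single libraries. Of 82 tested cytosolic ribosomal protein genes, 36 were higher and 0 lower (median 0.99), which became 2, 3, 2 and 29, and 16, 19 and 22 without B7hi HDM 2, B7hi HDM 3 and B7low HDM 3. Of 66 translation factors 6 were higher and 1 lower, with 3, 3, 2 and 6 higher calls left. The poly(A)-binding protein Pabpc1 was at 1009 and 929 CPM in B7hi and 413 and 346 CPM in B7low (1.35 ± 0.25), and the ribosome scaffold Gnb2l1 at 1222 and 1308 CPM in B7hi and 393 and 449.8 CPM in B7low (1.58 ± 0.30). Mitochondrial ribosomal proteins (77 tested) and unfolded protein response genes (50 tested) had 0 calls in edgeR, with medians of 0.35 and 0.26. Of 78 genes of the respiratory chain and ATP synthase, 2 were higher and 0 lower, with a median of 0.48. The higher share, 2.56%, is near the 2.91% of all tested genes. Of 64 tested genes of S phase and mitosis, 4 were higher (6.25%) and 0 lower, with a median log2 fold change of 1.58 and 56 of 64 above 0. The 4 calls became 2, 0, 0 and 1 with a saline library left out, and the median fell to 0.67 without B7hi saline 2. The called genes were Mcm6, of the DNA replication helicase, at 218 and 234 CPM in B7hi and 61.2 and 36.8 CPM in B7low (2.21 ± 0.54, edgeR adjusted p = 0.029), the kinase Cdk6, at 149 and 131 CPM in B7hi and 38.5 and 38.5 CPM in B7low (1.86 ± 0.44), and the microtubule genes Stmn1 and Tubb5 (1.91 ± 0.52 and 1.41 ± 0.34). All 4 lost their calls without each saline library in turn (adjusted p from 0.05 for Cdk6 to 0.2 for Mcm6), so the calls left there belong to other genes of the list. Stmn1 also lost its call without B7hi HDM 2 and without B7low HDM 3. The proliferation marker Mki67 was at 46.1 and 83.5 CPM in B7hi and 15.7 and 36.8 CPM in B7low and did not pass (adjusted p = 0.26).

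The same population contrast with HDM compares 6 libraries that are in neither arm of the saline contrast. All 10 libraries entered a single fit, so both contrasts share the count filter and the estimated spread. Calls in the 2 contrasts are therefore not independent. Of the 383 genes lower with saline, 367 had the same sign with HDM (95.8%) and 178 were called lower there (46.5%), where 2.15% of all tested genes were. Of the 306 higher genes, 270 had the same sign (88.2%) and 38 were called (12.4%), where 0.693% of all tested genes were. Over all tested genes 64.9% had the same sign. Median log2 fold changes went from −2.76 with saline to −1.50 with HDM for the lower genes and from 1.86 to 0.58 for the higher genes. Genes chosen for a large difference in one set of libraries tend to differ less in another, so no change with HDM is read from these medians. Slc6a4 was at 7.59 and 354 CPM in B7hi and B7low on average with HDM (log2 fold change −5.61, edgeR adjusted p = 3.3e-07), Slc31a2 at 6.26 and 215 CPM (−5.26, adjusted p = 1.6e-05) and Apoe at 170.2 and 1917 CPM (−3.49, adjusted p = 4.6e-05). These 3 genes therefore differed in both settings. Itga4 was also called with HDM (2.07, adjusted p = 0.0029).

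Other saline calls were not accompanied by a call with HDM. Tph1 stood at 759 and 869 CPM with HDM (log2 fold change −0.19, edgeR adjusted p = 0.89), Ecm1 at 80.4 and 126 CPM (−0.62, adjusted p = 0.35) and Cd9 at 202 and 141 CPM (0.53, adjusted p = 0.51). The test of the difference between both population effects called 0 genes in edgeR (901 at an unadjusted p under 0.05). Its smallest adjusted p was 0.054, reached by Cd9 and Ecm1 among others. With Tph1 it was 0.2. DESeq2 called 41 genes in the same test and limma-voom 0. No difference between saline and HDM is therefore stated for a single gene here.

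**Figure D4:**
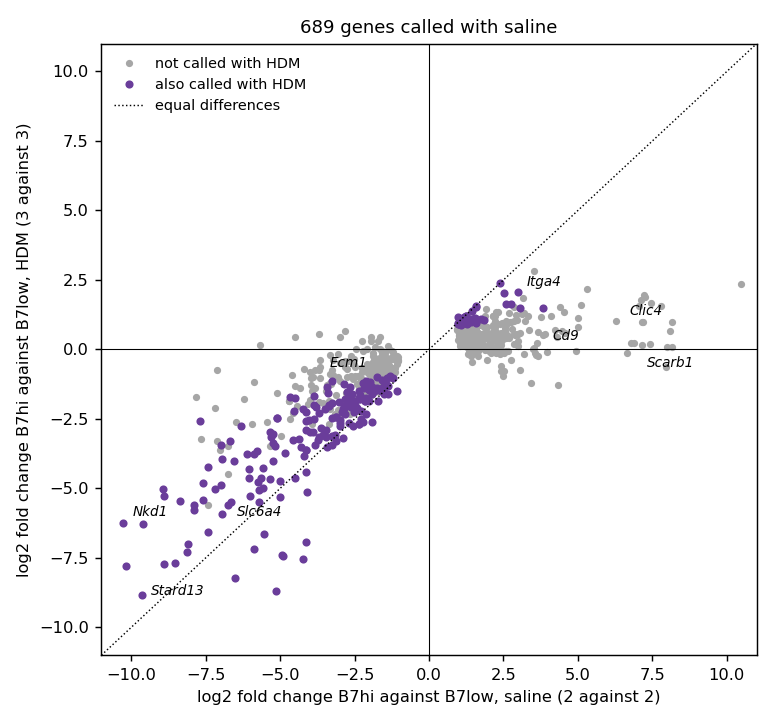
Fitted log2 fold change of B7hi against B7low with saline (x axis, 2 against 2 libraries) and with HDM (y axis, 3 against 3 libraries) for the 689 genes called with saline. Most points share the sign on both axes, and 216 are called in both. Of the 42 fitted values beyond 7 in size on the x axis, 39 belong to genes with at most 3 counts in a group and are not bounds.

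Over the 10 libraries, the genes whose log2 CPM followed Slc6a4 most closely were A530099J19Rik (Pearson r = 0.9985), Stard13 (0.994), Slc31a2 (0.9923), Nkd1 (0.9921) and C2 (0.9905). For Cd9 they were Heatr5a (0.978), Cdh1 (0.9741), Rnf5 (0.9617), Rab27a (0.96) and Napsa (0.9578). For Itgb7 they were Tspyl3 (0.9285), Snx19 (0.9096), Scp2 (0.906), Wdr83 (0.9011) and Desi1 (0.8853). The 10 points share 4 groups and their depths, so these correlations are descriptions, and those of Slc6a4 follow in the main the separation of B7hi from B7low.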

How the data were processed

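The authors deposited raw counts, whole numbers per gene symbol, for 22815 symbols in 10 libraries of sorted mast cells. Per the labels' protocols, libraries were made with SmartSeq2 from poly(A)+ RNA and read as paired ends of 25 bases. TopHat2 2.0.10, Cufflinks 2.2.1, DESeq2 and mm10 are listed, without roles, in the submitters' processing notes. Which tool counted reads, on which annotation and with what strand setting is not given in the sources used here. All 4 groups (population by challenge) entered a single edgeR 4.0.16 quasi-likelihood fit (R 4.3.3, TMM scaling, filterByExpr, robust spread, 6 residual degrees of freedom), which was tested on simulated data first. Tests were two-sided, with Benjamini-Hochberg adjustment over 10533 genes and a threshold of 0.05. An SE was taken as the absolute log2 fold change divided by √F. A group with 0 counts was set at 3 counts over the group (0.926 CPM for B7hi, 2.56 CPM for B7low), and one with 1 to 3 counts gives a ratio with an exact 95% interval, and both cover only counting error, because PCR copies could not be told from separate molecules. Total counts ran from 525983 to 1725818 per library.

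The gene lists, their members and the tests were chosen with earlier results of these data known, and lists are described by counts and medians only. Named genes are, in each direction, the 20 with the smallest p (at least 20 CPM in the higher group, groups that do not overlap, no predicted model, no classical granule protease), up to 10 with the largest change among those called in every fit without 1 saline library, up to 6 per list and direction, and 5 genes in any case (Itgb7, Kit, Fcer1a, Cd34 and Mki67). Some genes that met this rule are not reported here. Genes outside this rule are marked in the text, except the markers of cell types and library quality (Gata2, Kcnq1ot1, Lck and the like). Coordinates are from GENCODE M21 (GRCm38, the assembly of mm10), which held 662 of the 689 called symbols, and promoters from RefSeq (GRCm38.p6). Alternatives were DESeq2 size factors, library size alone, DESeq2 1.42.0, limma-voom (limma 3.58.1) with quality weights, no count filter, a filter of 5 CPM in 2 libraries, the 4 saline libraries alone, a replicate block, Rn45s left out, each library left out, and both libraries high in Kcnq1ot1 left out.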

Additional observations from a re-analysis of the deposited data

How the results depend on the processing

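Genes higher in B7hi numbered 306, and 655 with library size alone, 144 with limma-voom, 606 with no count filter, 101 with only the 4 saline libraries in the fit and 191 without both B7low saline 2 and B7hi HDM 2. Leaving out single libraries gave 80 (without B7hi saline 1) to 305 (without B7low HDM 1). Genes lower in B7hi numbered 383, and 146 (without B7hi saline 1) to 427 (without B7hi HDM 2) with single libraries left out, while the alternatives that kept all libraries gave 310 to 551. Of the 689 calls, 615 were shared with library size alone, 621 with DESeq2 size factors and 673 with DESeq2. The test of the difference between saline and HDM called 0 genes, and 2 with library size alone, 41 with DESeq2, 143 with no count filter, 3 with the filter of 5 CPM, 1 without both libraries high in Kcnq1ot1, and 0 to 3 with single libraries left out. Of the 258 named genes that were called, 241 stayed called with library size alone, 188 with limma-voom, and 130, 157, 148 and 184 without B7hi saline 1, B7hi saline 2, B7low saline 1 and B7low saline 2, and 257 or 258 had the same sign in each alternative. The cause of these changes was not tested, except that fits with fewer libraries have fewer samples. The labels do not say whether same-numbered libraries share mice or a day, and the data gave no sign of pairing: deviations of same-numbered libraries correlated at 0.04 with saline, where 2 libraries a side make this weak evidence, and at 0.02, −0.11 and −0.05 with HDM. With the replicate block, 296 genes were higher and 340 lower. Depth sets the floor, since 3 counts in B7low saline 2 correspond to 4.69 CPM of its total.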

Other observations

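Further genes with large differences belong to none of the groups above. Ube2v2, an accessory of the ubiquitin conjugating enzyme for lysine-linked chains, was at 172 and 117 CPM in B7hi and 1750.2 and 1048 CPM in B7low (−3.27 ± 0.38, edgeR adjusted p = 9.9e-05). Pstpip2, an adaptor of the membrane-bending F-BAR family, was at 2.27 and 2.61 CPM in B7hi and 161 and 83.6 CPM in B7low (−5.57 ± 0.58), and Gcsam, a germinal centre signalling protein, at 18.9 and 19.8 CPM in B7hi and 276 and 234 CPM in B7low (−3.71 ± 0.39). Dclk3, a doublecortin-like kinase, had 1 count in B7hi and 108 and 51.8 CPM in B7low (257-fold lower, 95% counting interval 45.1 to 10276). All 4 were also called with HDM, at log2 fold changes of −1.93, −4.25, −2.27 and −5.43 in the same order.

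Of 27 tested genes of the BCL2 family, inhibitors of apoptosis and caspases, 2 were higher in B7hi and 1 was lower, with a median log2 fold change of 0.22 against 0.03 for all tested genes. These shares were 7.41% and 3.70%, against 2.91% and 3.64% of all tested genes. Bcl2l11, which encodes the death-promoting BIM, was higher in B7hi at 219 and 89.3 CPM in B7hi and 26.2 and 25.1 CPM in B7low (2.58 ± 0.48, edgeR adjusted p = 0.0036), and the survival gene Bcl2 was lower at 2.27 and 16.7 CPM in B7hi and 62.9 and 53.5 CPM in B7low (−2.52 ± 0.64). Neither held throughout: Bcl2l11 no longer passed without B7hi saline 1 (adjusted p = 0.082), nor Bcl2 without B7hi saline 1, B7low saline 1 and B7low saline 2 in turn (adjusted p = 0.18, 0.11 and 0.078). Of 52 tested genes of fatty acid, glycerolipid and sphingolipid metabolism, 2 were higher and 2 lower, with a median of 0.35. Both shares, 3.85%, are near those of all tested genes, 2.91% higher and 3.64% lower. Sgpl1, which degrades sphingosine 1-phosphate, was lower at 63.5 and 49.6 CPM in B7hi and 357 and 174 CPM in B7low (−2.23 ± 0.39). Sptlc2, a chain of the enzyme that starts sphingolipid synthesis, was lower too, at 82.4 and 114 CPM in B7hi and 234 and 281 CPM in B7low (−1.39 ± 0.29), with its call lost without B7hi saline 1 (adjusted p = 0.16).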
